A study of Drosophila melanogaster with 12 samples.

Results

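Lipid metabolism genes of the Drosophila eye-antennal imaginal disc were followed in 3 larval models of Prp8-linked retinitis pigmentosa. A gene was taken as a member if it appeared in at least 1 of the 3 comparison tables and if the biological process text beside it in the table named lipid or fatty acid. Genes whose text also named oxidation-reduction, proteolysis, axon guidance, synapses or phototransduction were left out, as were genes annotated with oxidoreductase activity or placed in mitochondria. This left 54 of the 3525 genes in any table, while 78 would have been members without the exclusions. A table holds only genes whose p was under 0.05, so every member was listed in at least 1 mutant by construction. The direction of a change, its size and the number of tables were not part of the choice.

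All 4 genotypes carried ey-Gal4, whose expression starts in the embryo in dividing progenitors of the disc and has narrowed to the eye part by the time of dissection, and a UAS transgene of Drosophila Prp8, the core spliceosome protein, inserted at 1 common landing site. The transgene encoded the S2178F variant in Prp8S>F larvae (named fuchsia), the H2369R variant in Prp8H>R larvae (russet), the F2374L variant in Prp8F>L larvae (lilac) and the wild-type protein in Prp8wt larvae, which were the reference. The endogenous prp8 gene was intact in all of them, so each comparison sets an overexpressed variant against overexpressed wild-type Prp8. Larvae were raised at 25 °C and their eye-antennal discs (EADs) collected 7 days after eggs were laid, about 100 discs per library, with 3 libraries per genotype.

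The 12 libraries held 45.7 to 57.9 M reads (M, mega), of which 36 to 45.5 M mapped to a single place. Prp8 itself (FBgn0033688) was 1.36-fold higher in Prp8S>F EADs and 1.14-fold higher in Prp8H>R discs than in Prp8wt discs, and it was not listed in Prp8F>L. Transcripts of the transgene and of the endogenous gene were not told apart in these values. Values per library and expression levels were not among those used here, so neither the spread between replicates nor a test of one mutant against another can be given. The 3 comparisons share the Prp8wt libraries. A gene absent from a table either missed the p threshold or was not tested. Discs were sequenced in bulk, so fewer cells of a type and less RNA per cell cannot be told apart.

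Animal cells build fatty acids from acetyl-CoA, activate them by joining them to coenzyme A, and use them for membrane phospholipids, sphingolipids or triglycerides. Triglycerides are kept in lipid droplets, whose perilipin coat and lipases set the balance of storage and release, while phospholipid-transporting ATPases (flippases) keep both faces of a membrane different in lipid content. In the fly, the fat body is the main lipid store. Photoreceptors, which arise in the eye disc, depend on phosphoinositide turnover for their response to light.

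In Prp8S>F discs 41 members were listed, 17 higher and 24 lower than in Prp8wt discs. The table as a whole listed 2437 genes, which was 13.3% of the annotated genes, with 48.6% of them higher and 51.4% lower. The members were thus 41.5% higher and 58.5% lower, with a median log2 fold change of -0.12 beside -0.10 over all genes of the table. In Prp8H>R discs 20 members were listed, 8 higher (40%) and 12 lower (60%). That table listed 6.57% of the annotated genes, 43.5% of them higher and 56.5% lower, and the medians were -0.13 for the members and -0.10 for all its genes. In Prp8F>L discs 19 members were listed, 11 higher (57.9%) and 8 lower (42.1%). Of the annotated genes, 8.9% were listed there, with 41.9% higher and 58.1% lower. The median log2 fold change was 0.16 for the members and -0.11 for all genes of the Prp8F>L table. At a p under 0.05, members therefore leaned toward higher expression in the Prp8F>L table only, where most genes of the table were lower, and no test of this difference was made. Members were drawn from the 3525 genes in any table, so the shares of annotated genes are not their background. Of the 54 members 41 were listed in Prp8S>F, beside 2437 of the 3525 genes. The counts were 20 members beside 1207 genes in Prp8H>R and 19 members beside 1634 genes in Prp8F>L.

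**Figure D1:**
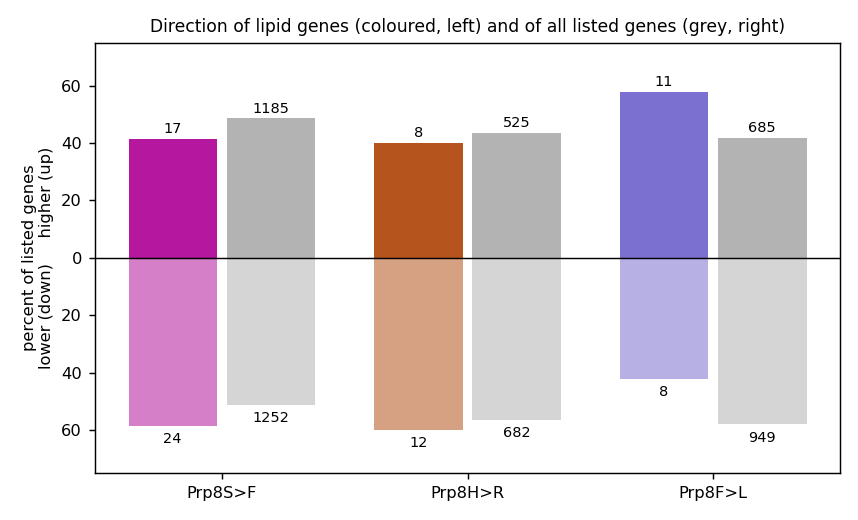
Direction of the listed lipid metabolism genes (coloured bars) and of all listed genes (grey bars) in each mutant against Prp8wt. The vertical axis is the percent of listed genes, higher above 0 and lower below 0, and the number on each bar is the count of genes. In Prp8F>L 11 members were higher and 8 lower, whereas 685 of all listed genes were higher and 949 lower.

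Nearly all changes were small. The median size of a member's fold change was 1.16 in Prp8S>F EADs, 1.14 in Prp8H>R EADs and 1.17 in Prp8F>L EADs, where all listed genes of the same tables had 1.19, 1.13 and 1.13. At a fold change of at least 1.5, 2 members passed in Prp8S>F, Hsp67Bc and GlcAT-P, both lower. At that threshold 6.07% of all listed genes passed in Prp8S>F. No member passed it in Prp8H>R EADs or in Prp8F>L EADs, where 0.746% and 1.22% of all listed genes passed. The sources used here do not say if the deposited p had been corrected for multiple tests. It was therefore adjusted by the Benjamini-Hochberg method over 18358 annotated genes. A p listed as 0 was set to 1e-06 for this. The 372 Prp8S>F genes with such a p thus share a Benjamini-Hochberg adjusted p of 4.64e-05, whatever their fold change. In Prp8F>L the shared value is 0.00011. After adjustment 19 members stayed under 0.05 in Prp8S>F EADs (11 higher, 8 lower), 4 in Prp8H>R EADs (2 higher, 2 lower) and 7 in Prp8F>L EADs (5 higher, 2 lower). The share of listed genes that stayed under 0.05 was 46.3% of the members and 44.6% of all genes in Prp8S>F. It was 20% of the members and 23.8% of all genes in Prp8H>R EADs. It was 36.8% of the members and 27.3% of all genes in Prp8F>L. Over all listed genes 470 higher and 616 lower ones stayed in Prp8S>F EADs, 107 and 180 in Prp8H>R EADs, and 149 and 297 in Prp8F>L EADs. The lean of the members in Prp8S>F thus depended on the threshold, at 17 higher and 24 lower before the adjustment and 11 higher and 8 lower after it, or 9 higher and 8 lower without Erk7 and CG11600, whose fold change was 1.01. Their median log2 fold change also changed sign, to 0.01 among the members that stayed.

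**Figure D2:**
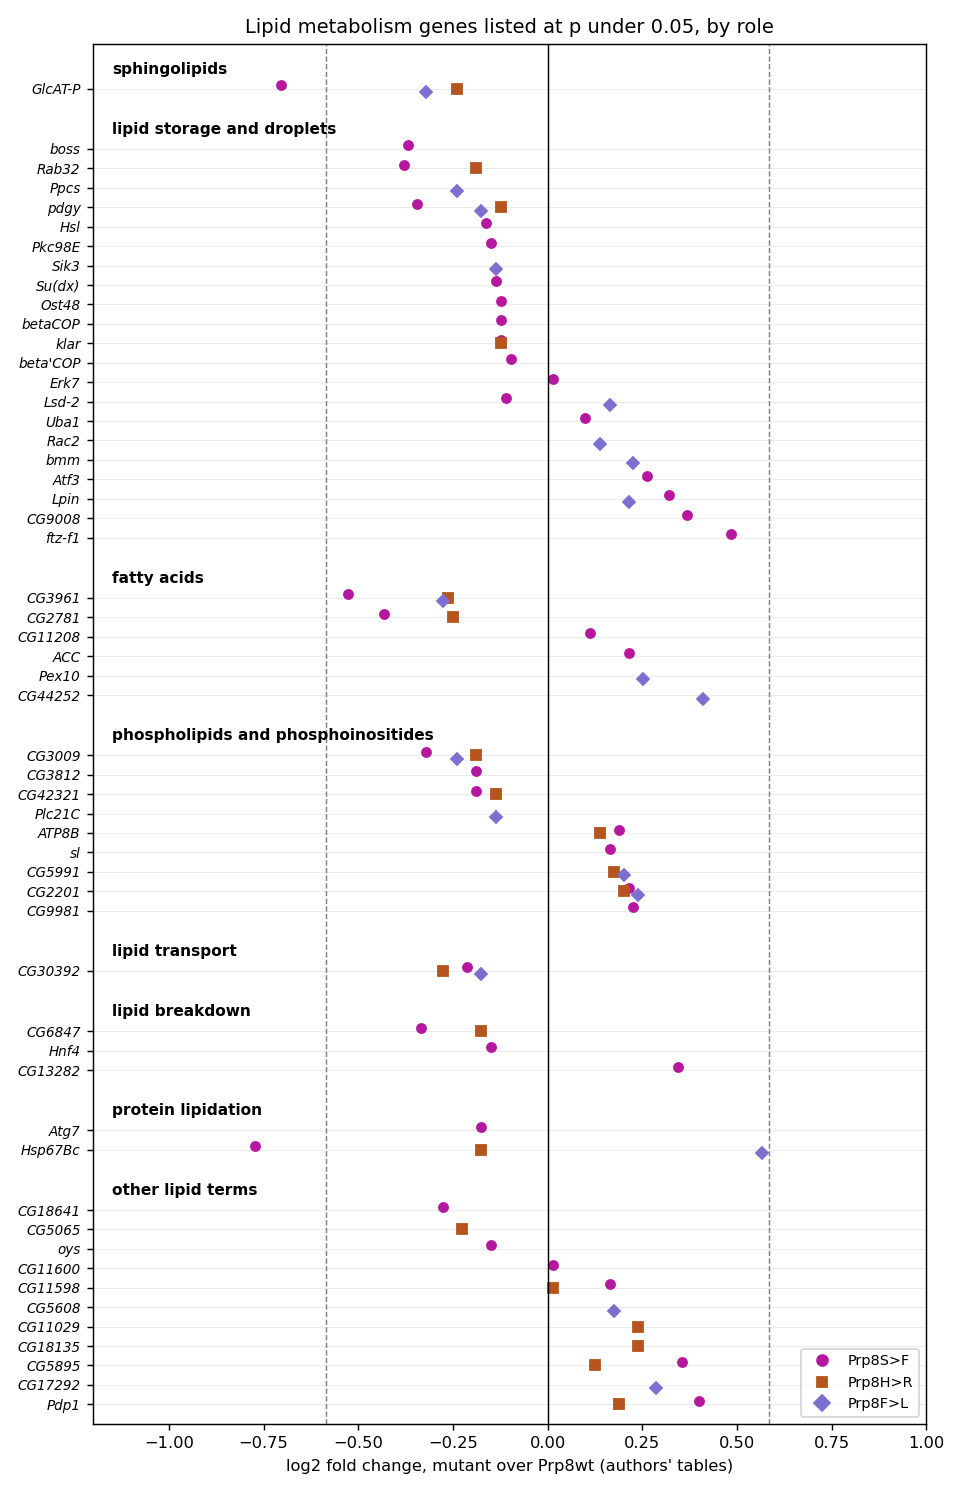
Log2 fold change of each of the 54 members in Prp8S>F (circles), Prp8H>R (squares) and Prp8F>L (diamonds) over Prp8wt, grouped by the role that the process text gives. Each point is the authors' value for 1 comparison of 3 libraries with 3 libraries; a missing point means that the gene was not listed, and the dashed lines mark a 1.5-fold change. Most points lie inside the dashed lines; GlcAT-P and Hsp67Bc lie outside on the lower side in Prp8S>F, and Hsp67Bc at 1.48-fold lies just inside on the higher side in Prp8F>L.

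The members fall into role groups by the words of their process text, and the largest holds 21 genes of lipid storage, droplets and lipid homeostasis. Of these, 6 were higher and 11 lower in Prp8S>F EADs, 3 were lower with none higher in Prp8H>R EADs, and 4 were higher and 3 lower in Prp8F>L EADs. In Prp8S>F the most raised was ftz-f1 (FBgn0001078, 3L:18750607-18801309), a nuclear receptor of the ecdysone timing cascade, at 1.4-fold over Prp8wt (Benjamini-Hochberg adjusted p = 0.000428). It was followed by CG9008 (FBgn0028540), annotated to lipid particle organization, at 1.29-fold (adjusted p = 0.00282). Neither gene was listed in Prp8H>R EADs or Prp8F>L. Lpin (FBgn0263593), the fly lipin that turns phosphatidate into diacylglycerol on the way to triglyceride, was 1.25-fold higher in Prp8S>F EADs and 1.16-fold higher in Prp8F>L than in Prp8wt. Both values of Lpin stayed under 0.05 after adjustment, at 0.000211 and 0.0451 by the Benjamini-Hochberg method. Exons of ftz-f1 and of Lpin overlap an exon of another gene on the same strand.

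Among the lower storage genes of Prp8S>F, Rab32 (FBgn0002567, 2R:9177864-9186342), a small GTPase of lysosome-related organelles such as eye pigment granules, had a fold change of -1.3 (a fall is written as a negative fold), with an adjusted p of 0.013 by the Benjamini-Hochberg method. It had -1.14 in Prp8H>R, where the adjusted p was above 0.05. The transcript of boss (FBgn0000206), the ligand that the R8 photoreceptor presents to its neighbours and a gene annotated to lipid homeostasis, had -1.29 in Prp8S>F only, and its adjusted p was 0.116 by the Benjamini-Hochberg method. Beside these values, the photoreceptor genes gl and elav had -1.55 and -1.33 in the same comparison, and 5 of 8 eye disc markers were lower and 1 higher. Over the annotated genes 13.3% were listed in that comparison, 51.4% of them lower. The part of these markers in the values of boss and Rab32 was not tested. The coatomer genes betaCOP and beta'COP, whose products coat vesicles of the secretory pathway and regulate storage, were at -1.09 and -1.07 in Prp8S>F. The gene klar, annotated to the transport of droplets along microtubules, was at -1.09 in Prp8S>F and in Prp8H>R EADs. None of these values of betaCOP, beta'COP and klar stayed under 0.05 after adjustment.

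Lsd-2 (FBgn0030608, X:15069127-15076220), a perilipin that coats lipid droplets and protects them from lipases, was listed in opposite directions. Its fold change was -1.08 in Prp8S>F EADs and 1.12 in Prp8F>L EADs, and it was not listed in Prp8H>R EADs. Only the rise in Prp8F>L stayed under 0.05 after adjustment (Benjamini-Hochberg adjusted p = 0.0225), while the value in Prp8S>F had an adjusted p of 0.291. Brummer (bmm), the fly triglyceride lipase that acts at droplets, was 1.17-fold higher in Prp8F>L only, and Hsl, the fly hormone-sensitive lipase, had -1.12 in Prp8S>F only. Ppcs (FBgn0261285), an enzyme of coenzyme A synthesis annotated to triglyceride homeostasis, had -1.18 in Prp8F>L only. None of bmm, Hsl and Ppcs stayed under 0.05 after adjustment.

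The group of fatty acid genes has 6 members. Of 3 genes for acyl-CoA ligases, which activate fatty acids, 2 were lower in every table. CG3961 (FBgn0036821, 3L:18878250-18890483), annotated to long-chain fatty acid metabolism, was at a fold change of -1.44 in Prp8S>F EADs, -1.2 in Prp8H>R EADs and -1.21 in Prp8F>L EADs. It was the only member under 0.05 after adjustment in all 3 tables, at 4.64e-05, 0.00279 and 0.00264 by the Benjamini-Hochberg method. The long-chain acyl-CoA synthetase pudgy (pdgy, FBgn0027601, X:14933670-14953532), grouped with storage because its text names triglyceride breakdown, had -1.27 in Prp8S>F EADs, -1.09 in Prp8H>R EADs and -1.13 in Prp8F>L EADs. Of these only the value in Prp8S>F stayed under 0.05 (adjusted p = 4.64e-05, Benjamini-Hochberg), and pdgy overlaps exons of other genes on both strands. The remaining ligase, CG44252 (FBgn0265187, 2R:23055474-23061549; Fatp2 in the current annotation), annotated to fatty acid transport, was instead 1.33-fold higher in Prp8F>L (adjusted p = 0.00291) and not listed in the other mutants. Exons of CG44252, too, overlap other genes on both strands.

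Fatty acid elongation was represented by CG2781 (FBgn0037534, 3R:7981817-7995852; Elovl7 in the current annotation), with -1.35 in Prp8S>F EADs and -1.19 in Prp8H>R EADs. Only its value in Prp8S>F stayed under 0.05 (adjusted p = 0.0155, Benjamini-Hochberg). ACC, the acetyl-CoA carboxylase that makes malonyl-CoA for fatty acid synthesis, moved the other way, 1.16-fold higher in Prp8S>F (adjusted p = 0.000795) and not listed elsewhere. FASN1 (FBgn0283427), the fatty acid synthase that uses malonyl-CoA, is no member because no process text naming lipid or fatty acid was available for it here. It was 1.52-fold higher in Prp8S>F (Benjamini-Hochberg adjusted p = 4.64e-05) and 1.17-fold higher in Prp8F>L (adjusted p = 0.29) than in Prp8wt. Pex10 (FBgn0035233), a peroxisome assembly ubiquitin ligase, was 1.19-fold higher in Prp8F>L only, and CG11208 (Hacl in the current annotation), annotated to fatty acid alpha-oxidation, was 1.08-fold higher in Prp8S>F only; neither stayed under 0.05 after adjustment.

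GlcAT-P (FBgn0036144, 3L:11176954-11197536), a glucuronyltransferase annotated to glycosphingolipid synthesis and the only sphingolipid member, was lower in all 3 mutants. Its fold change was -1.63 in Prp8S>F EADs, -1.18 in Prp8H>R EADs and -1.25 in Prp8F>L EADs. The Benjamini-Hochberg adjusted p was 4.64e-05 in Prp8S>F EADs, 0.188 in Prp8H>R EADs and 0.0413 in Prp8F>L EADs. CG30392 (FBgn0050392, 2R:21290914-21292181), annotated as a glycolipid transporter, had -1.16 in Prp8S>F EADs, -1.21 in Prp8H>R EADs and -1.13 in Prp8F>L EADs. For this gene the value in Prp8H>R EADs alone stayed under 0.05 after adjustment, at 0.043.

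Of the 9 members of the phospholipid and phosphoinositide group, 4 were higher and 3 lower in Prp8S>F EADs, 3 higher and 2 lower in Prp8H>R EADs, and 2 higher and 2 lower in Prp8F>L EADs. CG2201 (FBgn0032955, 2L:21614232-21624080), annotated to glycerophospholipid synthesis, was the only member higher in all 3 tables, at 1.16-fold in Prp8S>F EADs, 1.15-fold in Prp8H>R EADs and 1.18-fold in Prp8F>L EADs. None of these values stayed under 0.05 after adjustment. CG5991 (FBgn0026576; Pisd in the current annotation), which encodes phosphatidylserine decarboxylase, was 1.13-fold higher in Prp8H>R EADs and 1.15-fold higher in Prp8F>L EADs, also above 0.05 once adjusted. CG3009 (FBgn0029720), annotated as a phospholipase A2, had -1.25 in Prp8S>F EADs, -1.14 in Prp8H>R EADs and -1.18 in Prp8F>L EADs, all above 0.05 once adjusted.

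The 3 flippase genes did not move together. CG9981 and ATP8B were 1.17-fold and 1.14-fold higher in Prp8S>F, whereas CG42321 (ATP8A in the current annotation) had -1.14 in the same comparison. All 3 stayed under 0.05 after adjustment in Prp8S>F, at 4.64e-05, 0.0298 and 0.023 by the Benjamini-Hochberg method. In Prp8H>R, ATP8B was 1.1-fold higher and CG42321 had -1.1, both above 0.05 once adjusted, and no flippase was listed in Prp8F>L. Of the phospholipases C that cut phosphoinositides, sl (the gamma type) was listed in Prp8S>F at 1.12-fold and Plc21C (a beta type) in Prp8F>L at -1.1, and both were above 0.05 once adjusted.

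Lipases outside the storage group were few and mixed. In Prp8S>F, CG13282 (FBgn0032612) was 1.27-fold higher and CG6847 (FBgn0030884, X:17911462-17924163) had -1.26; of these CG6847 stayed under 0.05 after adjustment (Benjamini-Hochberg adjusted p = 0.0298). CG6847 had -1.13 in Prp8H>R EADs as well, above 0.05 once adjusted. CG11029 (FBgn0031735), whose function text names a phospholipase, was 1.18-fold higher in Prp8H>R EADs only, above 0.05 once adjusted. CG17292 (FBgn0032029) was 1.22-fold higher in Prp8F>L EADs only, where its adjusted p was 0.0188. The words lipase activity were matched in the function text of 9 genes, bmm, Hsl and CG11029 included. Of these, 3 were higher and 3 lower in Prp8S>F EADs and 2 higher and 1 lower in Prp8H>R EADs. In Prp8F>L EADs 2 were higher with none lower. The lipase genes CG11598 and CG11600 lie 256 bases apart on the same strand of 3R (12634917 to 12637976). In Prp8S>F they were listed with a p of 0 at 6 decimals but fold changes of 1.12 and 1.01, and CG11598 had 1.01 in Prp8H>R EADs. Erk7, a kinase annotated to lipid particle organization, had the same pattern, with 1.01 in Prp8S>F. Values of this kind, a p of 0 at a fold change under 1.1, occurred for 90 genes of the Prp8S>F table, and what produced them was not tested.

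Hsp67Bc (FBgn0001229, 3L:9371511-9372497), a small heat-shock gene without introns whose product takes part in autophagy and is annotated to protein lipidation, showed the widest range of all members. Its fold change was -1.71 in Prp8S>F EADs, -1.13 in Prp8H>R EADs and 1.48 in Prp8F>L EADs. The Benjamini-Hochberg adjusted p was 4.64e-05 in Prp8S>F EADs and 0.00011 in Prp8F>L EADs, and above 0.05 in Prp8H>R EADs. The other gene annotated to protein lipidation, Atg7 (FBgn0034366), the activating enzyme that loads Atg8 for autophagy, had -1.13 in Prp8S>F only, above 0.05 once adjusted.

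Of 4 DNA-binding factors, 3 were higher and 1 lower in Prp8S>F. These were ftz-f1 and Pdp1 (FBgn0016694, 3L:7811458-7867369), a clock factor with a basic leucine zipper, at 1.4-fold and 1.32-fold, Atf3 at 1.2-fold and the nuclear receptor Hnf4, known in the fly for switching on fatty acid breakdown, at -1.11. After adjustment ftz-f1 and Pdp1 stayed under 0.05, at 0.000428 and 0.000494 by the Benjamini-Hochberg method. Pdp1 was also 1.14-fold higher in Prp8H>R EADs, above 0.05 once adjusted, and none of the 4 was listed in Prp8F>L EADs. Other members with general lipid terms included CG5895 (FBgn0036560), a predicted phosphoric diester hydrolase, 1.28-fold higher in Prp8S>F (Benjamini-Hochberg adjusted p = 4.64e-05). CG5895 was 1.09-fold higher in Prp8H>R EADs, above 0.05 once adjusted. CG18135 (FBgn0036837), of the same predicted activity, was 1.18-fold higher in Prp8H>R EADs only (adjusted p = 0.0248). CG5065 (FBgn0034145), annotated to ether lipid synthesis, had -1.17 in Prp8H>R EADs only, above 0.05 once adjusted.

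The remaining members were each listed in 1 table, and none stayed under 0.05 after adjustment. In Prp8S>F the ubiquitin-activating enzyme gene Uba1 was 1.07-fold higher. The oligosaccharyltransferase subunit gene Ost48 was at -1.09, the ubiquitin ligase gene Su(dx) at -1.1 and the protein kinase C gene Pkc98E at -1.11. The acyltransferase genes oys and CG3812 (Agpat1 in the current annotation) were at -1.11 and -1.14, and the predicted lipase CG18641 at -1.21, also in Prp8S>F. In Prp8F>L the small GTPase gene Rac2 was 1.1-fold and CG5608, annotated to the regulation of lipid kinases, 1.13-fold higher, while the salt-inducible kinase gene Sik3 was at -1.1.

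Across the tables, 35 members were listed in 1 mutant, 12 in 2 and 7 in all 3 (64.8%, 22.2% and 13.0%). Of all listed genes, 62.7% were in 1 table, 24.9% in 2 and 12.4% in all 3, so these shares were near the background. Of those listed once, 23 were in Prp8S>F EADs (11 higher, 12 lower), 3 in Prp8H>R EADs (2 higher, 1 lower) and 9 in Prp8F>L EADs (6 higher, 3 lower). The same split was not made over all listed genes. Of the Prp8H>R members 80% were also listed in Prp8S>F, beside 77.5% of all Prp8H>R genes. Of the Prp8F>L members 47.4% were also listed in Prp8S>F, beside 45.8% of all Prp8F>L genes. Of the Prp8S>F members 22% were also listed in Prp8F>L, beside 30.7% of all Prp8S>F genes. A gene listed in 1 table is not shown to differ between mutants. The 7 genes in all tables were CG2201, higher in each, CG30392, CG3009, pdgy, CG3961 and GlcAT-P, lower in each, and Hsp67Bc, whose direction differed. Since the comparisons share the same Prp8wt libraries, a shared direction is given as a description only. The size of the change was largest in Prp8S>F for CG3009, pdgy, CG3961, GlcAT-P and Hsp67Bc, in Prp8H>R EADs for CG30392 and in Prp8F>L for CG2201.

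**Figure D3:**
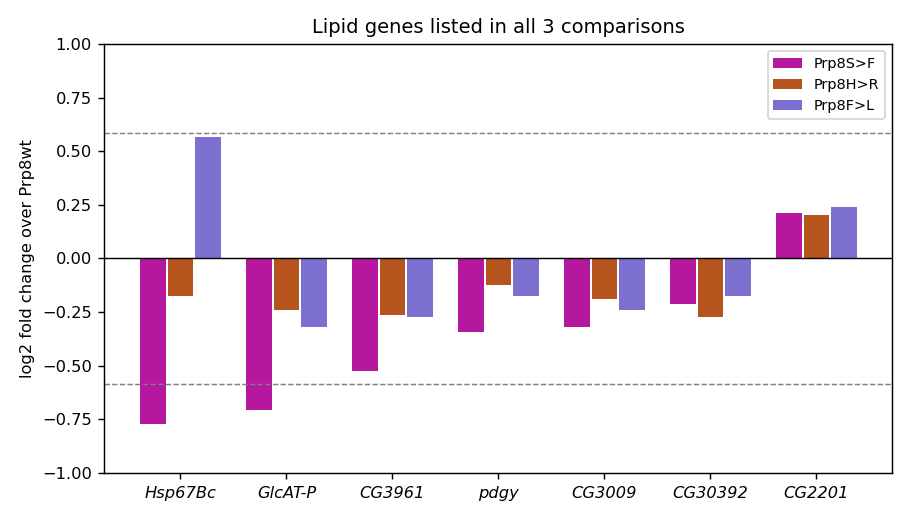
Log2 fold change over Prp8wt of the 7 members listed in every comparison, with bars for Prp8S>F, Prp8H>R and Prp8F>L from left to right within each gene. Each bar is the authors' value for 3 libraries against 3, without an error since none was used here, and the dashed lines mark a 1.5-fold change. Hsp67Bc is at a fold change of -1.71 in Prp8S>F and 1.48 in Prp8F>L, while the other 6 genes keep 1 sign.

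The members lie on all large chromosome arms, with 10 on 2L, 13 on 2R, 11 on 3L, 9 on 3R and 11 on X. All are protein coding, and exons of 19 overlap an exon of another gene, 7 on the same strand and 14 on the other. Those on the same strand are Lpin, ftz-f1, klar, pdgy, Sik3, CG44252 and CG18135, and those on the other include CG9008, CG3009, Pex10, CG13282, CG17292 and CG9981. Whether the counting used strand is not stated, so reads of these genes and of the genes they overlap may have been mixed. Members that were lower spanned more genomic sequence than members that were higher in each mutant, with median spans of 8.03 and 6.17 kb in Prp8S>F EADs, 13.4 and 5.53 kb in Prp8H>R EADs, and 15.0 and 3.8 kb in Prp8F>L EADs. Over the listed protein-coding genes of the annotation the medians of lower and higher genes were 7.58 and 2.62 kb in Prp8S>F EADs, 8.43 and 3.04 kb in Prp8H>R EADs, and 13.2 and 2.16 kb in Prp8F>L EADs. The longer span of lower genes was thus seen over the listed protein-coding genes and not in the lipid genes alone. The median number of introns of lower and higher members was 5 and 6 in Prp8S>F EADs, 6.5 and 2.5 in Prp8H>R EADs, and 7 and 5 in Prp8F>L EADs. Over the listed protein-coding genes it was 5 and 3 in Prp8S>F EADs, 5 and 3 in Prp8H>R EADs, and 5 and 2 in Prp8F>L EADs, so that in Prp8S>F the order of the members was opposite to that of their table.

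**Figure D4:**
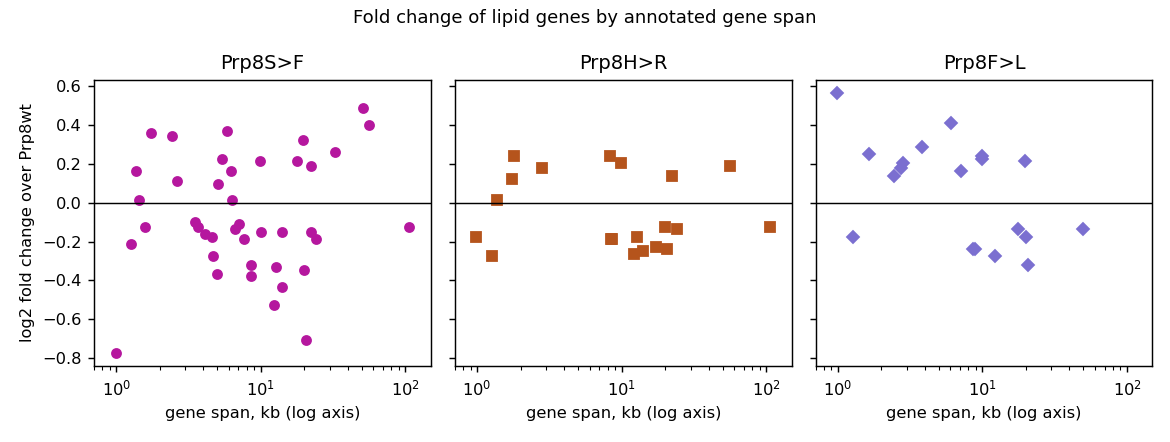
Log2 fold change over Prp8wt against annotated gene span (kb, log axis) for the listed members, 1 point per gene and 1 panel per mutant (Prp8S>F, Prp8H>R, Prp8F>L). In Prp8F>L the median span was 15.0 kb for the 8 lower members and 3.8 kb for the 11 higher ones, and in Prp8S>F it was 8.03 kb for the 24 lower and 6.17 kb for the 17 higher.

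A wider list of 239 lipid pathway entries, of which 215 matched an annotated gene and 15 were members, placed these genes among their pathways. In Prp8S>F 12 of its genes were higher and 26 lower, in Prp8H>R EADs 3 were higher and 9 lower, and in Prp8F>L 16 were higher and 13 lower. After adjustment 6 were higher and 6 lower in Prp8S>F, none passed in Prp8H>R EADs, and 4 were higher and 2 lower in Prp8F>L EADs. The 4 higher in Prp8F>L (CG44252, Lpin, Lsd-2 and CG17292) were all members, so they repeat values given above. The 2 lower, Mtpalpha and sima, were not members. Counts of the wider list are thus not separate from those of the members. The median log2 fold change of the listed genes of the wider list was -0.15 in Prp8S>F EADs, -0.10 in Prp8H>R EADs and 0.14 in Prp8F>L EADs, beside the whole-table medians given above. In Prp8S>F, of 30 matched fatty acid synthesis genes 4 were higher and 1 lower, and of 30 matched lipoprotein and lipid transport genes 5 were lower with none higher, of which 2 stayed under 0.05 after adjustment. Both groups were picked for their direction after the values were seen. Of the 10 pathway groups, only fatty acid synthesis had more higher than lower genes in Prp8S>F. Other groups also leaned lower there, such as sterols and regulators with 2 higher and 6 lower, and lipases with 2 lower and none higher. As a background, 13.3% of all annotated genes were listed in Prp8S>F. FASN1 was the only gene of the list past both a p under 0.05 and a 1.5-fold change in any mutant.

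Marker genes of other tissues were read beside these values, since fat body and blood cells handle much lipid in the larva. Of 10 fat body markers, 9 matched, and 1 of these, Lsp1alpha, was listed. Its fold changes were -1.04 in Prp8S>F EADs, -1.01 in Prp8H>R EADs and -1.04 in Prp8F>L EADs. Col4a1, which the fat body list holds under its older name Cg25C, was counted with the hemocyte markers. It had -1.22 in Prp8F>L. Hemocyte markers were 4 lower and none higher of 10 in Prp8S>F, with fold changes from -1.68 to -1.18. They were 3 lower in Prp8H>R EADs and 2 lower in Prp8F>L EADs, with none higher in either. Of 4 matched oenocyte markers only svp was listed, at -1.22 in Prp8S>F EADs and -1.1 in Prp8F>L. The wider pathway list counts svp as well, among sterols and regulators. Of 8 muscle markers, 2 were higher in Prp8S>F EADs (1.23 and 1.25), 2 in Prp8H>R EADs (1.12 and 1.23) and 1 in Prp8F>L EADs (1.2), with none lower. Of 8 glial markers, 2 were higher in Prp8S>F, at 1.53 for Mdr65 and 1.32 for wrapper, and 2 lower, while 1 was higher and 2 lower in Prp8H>R and 2 were lower in Prp8F>L. Of 5 antennal disc markers, 1 was lower in Prp8S>F EADs, 1 in Prp8H>R EADs and 4 in Prp8F>L EADs. In Prp8F>L, 4 of 7 ring gland markers were lower, from -1.16 to -1.11, and none was listed in the other mutants. The part of these cells in the lipid gene values was not tested.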

How the data were processed

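RNA of eye-antennal discs was sequenced as paired-end reads of 75 bp in 12 libraries, 3 for each of 4 genotypes. Per the paper's methods and the submitters' processing notes, the authors aligned reads to BDGP6 (dm6) with TopHat2 2.0.10 after a FastQC check, and set each mutant against Prp8wt in DESeq2. The authors deposited signed fold changes, treated here as a score since a fall is written as a negative value, and p-values rounded to 6 decimals for genes with a p under 0.05. Whether fold changes were shrunken or p-values adjusted is not given in the sources used here. The authors' quality reports deposited other values, numbers of reads in M (mega). The authors' own comparisons were used because the member rule rests on them and no values per library of a gene were used here.

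From these tables, log2 fold changes, counts, medians and Benjamini-Hochberg adjusted p-values were computed with Python 3.11.15, numpy 2.4.6 and pandas 2.3.3, and figures with matplotlib 3.10.9. The adjustment ran over 18358 genes of Ensembl release 115, with unlisted genes at a p of 1 and a p of 0 at 1e-06, and was tested on simulated data. Coordinates are those of that annotation (BDGP6). Process text of 49 genes was not used here, and 785 genes had none.

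Genes named were members past a p of 0.05 and a 1.5-fold change, listed in all tables or in opposite directions, the 5 largest rises and falls of each table and the 2 largest of each role group, which gave 25 genes. Other members and marker genes that the text names were chosen after their values were seen. The members and lists were chosen with earlier results of these data known. The p-values measure only the spread between the sequenced libraries. No test of the list as a set and no correlation between comparisons was made. Alternatives were a p under 0.01, the adjusted p, fold changes of at least 1.2 and 2, no exclusions, a narrower text and the omission of genes with a p of 0 at a fold change under 1.1, with the last also combined with the adjusted p after the data were seen.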

Additional observations from a re-analysis of the deposited data

Results flagged for a closer look

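Members of opposite direction in 2 mutants were singled out, and the difference between the mutants was not tested. Over Prp8wt, Hsp67Bc was at a fold change of -1.71 in Prp8S>F EADs, at -1.13 in Prp8H>R EADs and at 1.48 in Prp8F>L EADs. Lsd-2 had -1.08 in Prp8S>F and 1.12 in Prp8F>L. No values per library were used here, so whether every library moved with its group is not known.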

How the results depend on the processing

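No paired analysis was possible because the values used here are 1 fold change and 1 p per comparison, which also left no replicate to omit. At a p under 0.01, 12 members were higher and 13 lower in Prp8S>F EADs, 4 higher and 6 lower in Prp8H>R EADs, 7 higher and 4 lower in Prp8F>L, and 2 had 1 direction in all tables. At an adjusted p under 0.05 they were 11 higher and 8 lower in Prp8S>F EADs, 2 and 2 in Prp8H>R EADs, and 5 and 2 in Prp8F>L, with 1 in 1 direction in all tables, and the median log2 fold change in Prp8S>F reversed to 0.0144. With members of a p of 0 but under 1.1-fold change also omitted, which was tried after seeing the data, they were 9 and 8 in Prp8S>F EADs, 1 and 2 in Prp8H>R EADs, and 5 and 2 in Prp8F>L, with 1 in 1 direction in all tables. The medians were then 0.1635 in Prp8S>F and -0.263 in Prp8H>R. Without exclusions 26 were higher and 34 lower in Prp8S>F, and 17 higher and 12 lower in Prp8F>L. With the narrower text 1 lower member of Prp8S>F passed the 1.5-fold threshold. With the fold threshold at 2, 0 members were lower in Prp8S>F. At 1.2 or more, 7 were higher and 10 lower in Prp8S>F EADs, 2 lower in Prp8H>R EADs, and 3 higher and 2 lower in Prp8F>L. A stricter rule cannot raise a count and a wider rule cannot lower it. The change of lean and of the sign of the median in Prp8S>F is not fixed in this way, and what produced it was not tested. All other counts stayed within 1.5 times, and the other medians kept their sign. The adjusted p and the narrower text were applied to medians, counts past the fold threshold and the count over all tables after seeing the data, and so was the omission of a p of 0 to the last 2. If the deposited p is unadjusted, some listed members may not have changed.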

Other observations

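Among the 24 genes with lipid or fatty acid text that the exclusions left out, 9 were higher and 10 lower in Prp8S>F EADs, 1 higher with 4 lower in Prp8H>R EADs, and 6 higher with 4 lower in Prp8F>L EADs. CG10131 (FBgn0033949), a predicted fatty acid dehydrogenase, was at -1.69 in Prp8S>F and at -1.13 in Prp8H>R. ADPS (FBgn0033983), an enzyme of ether lipid synthesis in peroxisomes, was at -1.45 in Prp8S>F and at -1.13 in Prp8H>R. Jabba, a lipid droplet protein in the wider pathway list, was at -1.31 in Prp8S>F, with an adjusted p of 0.0785 by the Benjamini-Hochberg method. These 3 genes were chosen after their values were seen.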
